A study of Mus musculus with 18 samples.

Results

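The genes described here are the neighbours of Car6 on distal mouse chromosome 4, a list of 49 genes that lie on both sides of it. They were found by matching the list to the gene symbols of the array's probe annotation. Of the 49 genes, 44 had at least 1 probe, with 68 probes between them, out of 16593 named genes and 25697 probes on the array. Pgd, Eno1, Rere, Camta1 and Zbtb48 matched no probe and were not analysed here.

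The study measured RNA from the submandibular gland, the stomach and the duodenum of wild-type and Car6-/- mice on Illumina bead arrays, which read each transcript through short probes attached to beads. All animals were C57BL/6 females aged 2 months, and the only stated difference between the groups was the Car6 allele, lost on both chromosomes in the Car6-/- mice. Each tissue and genotype had 3 arrays, which gave 18 arrays in 6 groups, and the series text speaks of 3 mice of each genotype. How the Car6 allele was made, in which cells, and how often it was crossed to C57BL/6 are not given in the sources used here.

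Car6 encodes carbonic anhydrase VI, the secreted member of the family, which salivary glands release into saliva. A targeted allele is bred together with the stretch of chromosome around it, so the neighbours of a targeted gene are inherited with it more often than genes elsewhere. Which stretch of chromosome 4 the Car6-/- mice carried with the allele was not tested. The neighbours themselves have mostly unrelated functions, apart from relatives such as Fbxo2, Fbxo6 and Fbxo44, or Nppa and Nppb. They include adaptors of ubiquitin ligases, which choose the proteins that are marked for degradation, metabolic enzymes, vesicle motors, RNA-binding proteins and secreted peptides.

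The member with separate genotype groups in all 3 tissues was Fbxo44, though in the duodenum its probe was detected in wild type alone. Fbxo44 is an F-box protein of the family that recruits substrates to SCF ubiquitin ligases. It sits between its relatives Fbxo6 and Fbxo2, which bind the sugar chains of misfolded glycoproteins. Fbxo44 and Fbxo2 run in opposite directions from neighbouring start sites. Their promoter windows are shown because Fbxo44 was called in the mean effect over tissues and Fbxo2, which starts beside it, was not. Both sequences are from RefSeq (build GRCm38.p6), written 5′ to 3′ along each gene's own strand, with 250 bases before the start and 50 after it. The windows are chr4:148160045-148160344 on the minus strand for Fbxo44, and chr4:148160418-148160717 on the plus strand for Fbxo2.
Fbxo44: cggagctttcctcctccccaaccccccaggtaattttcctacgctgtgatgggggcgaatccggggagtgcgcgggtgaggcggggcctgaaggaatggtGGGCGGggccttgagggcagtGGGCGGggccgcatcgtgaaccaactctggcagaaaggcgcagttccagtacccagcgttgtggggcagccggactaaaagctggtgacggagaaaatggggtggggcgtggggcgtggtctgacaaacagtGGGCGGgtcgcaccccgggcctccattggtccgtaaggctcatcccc
Fbxo2: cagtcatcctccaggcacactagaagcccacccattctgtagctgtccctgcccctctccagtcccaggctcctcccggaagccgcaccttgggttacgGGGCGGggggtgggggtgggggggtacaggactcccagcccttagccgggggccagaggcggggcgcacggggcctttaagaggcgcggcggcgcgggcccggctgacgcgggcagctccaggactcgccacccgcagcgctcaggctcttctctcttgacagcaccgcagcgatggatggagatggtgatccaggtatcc
Capitals mark GGGCGG, the GC box bound by Sp-family factors, which was searched on both strands (GGGCGG or CCGCCC). The Fbxo44 window held 3 and the Fbxo2 window 1, and each window held 21 CpG dinucleotides. The motif occurred in 35.7% of all 32851 promoter windows of the table. Of the list and Car6, 46 genes had a window, and 36 of these, or 78.3%, held the motif in at least 1. That share is per gene and not per window. The motif is given only as a description. The 2 starts lie 574 bases apart, and RefSeq lists 3 start windows for Fbxo44, of which the outermost is printed.

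The targeted gene was checked first. Signals are given on the log2 scale after background correction and quantile normalization within a tissue (neqc of limma). A probe is called detected where its detection p was under 0.01, and it was tested where it was detected on at least 3 of the 6 arrays of a tissue. Car6 read 6.05, 6.44 and 6.65 on the wild-type submandibular arrays and 4.53, 4.44 and 4.35 on the Car6-/- arrays, and was detected on all of the former and none of the latter. It fell at least 1.57-fold (limma adjusted p = 0.00432), and no array of the stomach or duodenum detected it in either genotype.

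The arrays of a tissue differed in depth and in the cells they sampled. The number of probes detected per array was 7868 to 9613 in the submandibular gland, 10214 to 11441 in the stomach and 9648 to 11808 in the duodenum. Stomach wild-type replicate 3 had a mean log2 signal of 12.29 for a pancreatic acinar list of 6 genes (5 on the array), against 6.11 to 6.25 on the other stomach arrays. Duodenal Car6-/- replicate 3 had 8.08 for gastric mucous genes, against 12.94 to 13.98. Replicate 1 of both genotypes was low in salivary acinar genes, at 9.14 and 11.04 against 13.06 to 13.44 on the other submandibular arrays. Stomach arrays of both genotypes also differed in other lists. Skeletal muscle genes read 5.57, 5.59 and 9.15 in the wild-type stomach and 9.06, 7.69 and 5.66 in Car6-/-. Squamous epithelium genes read 10.98, 8.54 and 10.97 against 10.51, 11.28 and 8.27. In such bulk samples, fewer cells of a type and less RNA per cell cannot be told apart.

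Of the 44 genes with a probe, 28 were tested in at least 1 tissue, 23 of them in all 3, 2 in 2 tissues and 3 in 1 tissue. The other 16 were detected too rarely. Of these, 9 were detected on no array: Nmnat1, Dnajc11, Clcn6, Tnfrsf9, Nppa, Nppb, Uts2, Cort and Masp2. The other 7, detected on 1 or 2 arrays, were Slc2a5, Pik3cd, Gpr157, Nol9, Casz1, Mad2l2 and Angptl7. All 6 secreted peptides and proteins of the list are among the 16, including the natriuretic peptides Nppa and Nppb, the complement protease Masp2 and the neuropeptide Cort. Slc2a5, the fructose transporter next to Car6 in the list, was detected on 1 of 18 arrays. Passing the filter needed only 3 arrays, so a gene could pass through the genotype in which it was higher.

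No member passed the threshold of an adjusted p of 0.05 when each tissue was fitted on its own (limma, Benjamini-Hochberg over all genes tested). In the submandibular gland 24 members were tested and 0 were called, against 0.099% of all 7074 genes. In the stomach 26 members were tested and 0 were called, against 0% of all 8556 genes. In the duodenum 26 were tested and 0 were called, against 0.0117% of all 8523 genes. At an unadjusted p under 0.05 there were 4 members in the submandibular gland, or 16.7% of those tested against 9.64% of all genes. Of these 2 were lower and 2 higher (4.07% and 5.57% of all genes). There were 6 in the stomach, or 23.1% of the members tested against 2.9% of all genes, and 5 were lower and 1 higher in Car6-/- (1.69% and 1.2% of all genes). There were 11 in the duodenum, or 42.3% against 22.8% of all genes, with 7 lower and 4 higher (11.4% of all genes in either direction). The members were chosen with earlier results of these data known. Their shares beside those of all genes, here and below, are therefore descriptions and no test of the list.

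In the submandibular gland 7 members had no overlap between wild-type and Car6-/- arrays, or 29.2% against 15.4% of all genes. Of these 5 were higher (8.93% of all genes) and 2 lower (6.5%). In the stomach the groups of 5 members did not overlap, or 19.2% against 9.01%, with 5 lower (5.84%) and 0 higher (3.17%). In the duodenum there were 12, or 46.2% against 29.7%, with 7 lower (13.9%) and 5 higher (15.8%).

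Some marker lists separated by genotype in the duodenum and others overlapped, where 29.7% of all single genes did not overlap. Pancreatic acinar genes ran from 14.12 to 14.72 in wild type against 14.28 to 14.53 in Car6-/-. Leukocyte genes ran from 7.67 to 8.37 against 7.99 to 8.70. The mean log2 signal of an enterocyte list ran from 8.63 to 9.38 in wild type and from 9.45 to 9.80 in Car6-/-, without overlap. Of its 7 genes 5 were on the array, 3 were detected on all 6 arrays, and Fabp1 and Fabp2 on none. A chief cell list, with 4 of 5 genes on the array, ran from 9.89 to 10.12 against 8.36 to 9.88. The gastric mucous list, with all 6 genes on the array, ran from 13.67 to 13.98 against 8.08 to 13.47. The lowest chief cell and mucous values are those of Car6-/- replicate 3. The other Car6-/- arrays read 9.88 and 9.41 for chief cell genes and 13.47 and 12.94 for mucous genes. The part of these lists in the duodenal values given here was not tested.

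The middle of the list shifted little. The median log2 fold change of Car6-/- over wild type was 0.13 for the members in the submandibular gland and 0.01 for all genes. In the stomach it was -0.13 against -0.02, and in the duodenum -0.06 against 0.02. In the submandibular gland 8 members were lower and 16 higher in value, where 48.1% of all genes were lower. Lower and higher members numbered 17 and 9 in the stomach (52.6% of all genes lower) and 14 and 12 in the duodenum (47.8% lower). Scaling each duodenal array by its median in place of quantile normalization moved the median of all genes to 0.22 and that of the members to 0.16, so that signs of small duodenal changes depend on the scaling.

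**Figure D1:**
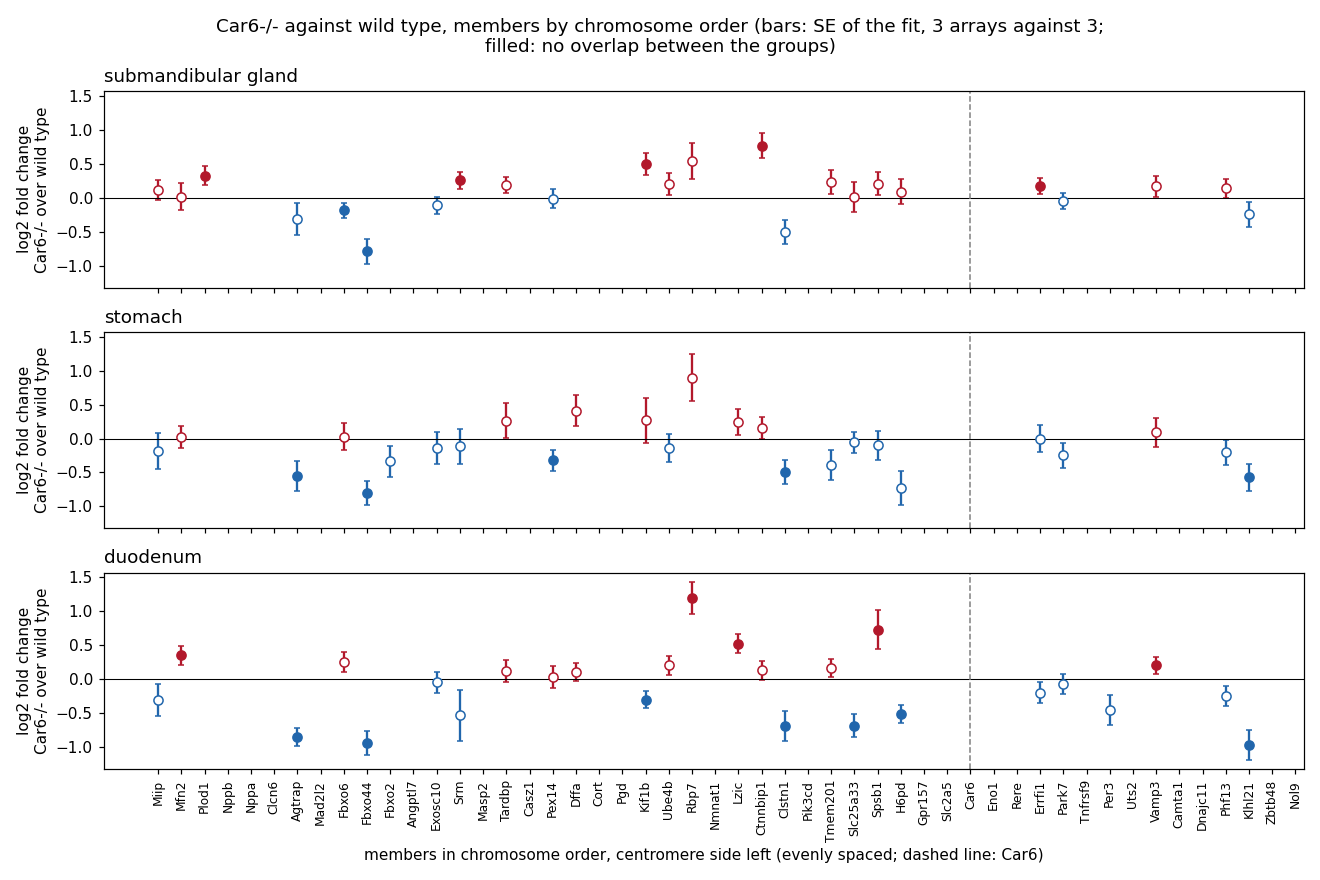
Log2 fold change of Car6-/- over wild type (vertical axis, with the SE of the fit of 3 arrays against 3) for each tested member in each tissue, in chromosome order with even spacing; red is higher, blue is lower, and filled points are members whose groups did not overlap. Fbxo44 is filled and between -0.79 and -0.94 in each tissue, while the neighbouring points on both sides lie nearer to 0.

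Among the 6 ubiquitin ligase members, Fbxo44 was lower without overlap in all 3 tissues. Its probe, ILMN_1229019, was dim. The submandibular arrays read 6.60, 6.43 and 6.03 in wild type and 5.73, 5.28 and 5.69 in Car6-/-, a log2 fold change of -0.79 (SE 0.19, limma adjusted p = 0.381). The stomach arrays read 6.52, 6.82 and 6.59 against 6.06, 5.61 and 5.85, a change of -0.80 (SE 0.18) that was not past the threshold either. The lowest wild-type array stood above the highest Car6-/- array in both tissues. Duodenal signals were 6.37, 5.92 and 5.78 in wild type and 5.13, 5.01 and 5.13 in Car6-/-, where no array detected the probe. The probe passed the filter in the duodenum through the wild-type arrays alone. The duodenal level was therefore at least 1.15-fold lower (limma adjusted p = 0.115), and the fitted change of -0.94 is not a measured fold.

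Fbxo44 was the single member called when the effect was averaged over the 3 tissues. In a fit of all 18 arrays, the mean effect of Car6-/- over the tissues was -0.82 (SE 0.11, limma adjusted p = 0.00384). It includes the undetected duodenal Car6-/- arrays and is therefore not a measured fold. In this contrast 1 of the 28 members tested was called, against 0.134% of all 9682 genes, and Car6 was among the 13 genes called. The size depends on the background correction, with -0.47 without it (limma adjusted p = 0.0118). Without the duodenum, where Car6-/- was undetected, the mean of the other tissues was -0.82 (limma adjusted p = 0.0164). Leaving out Car6-/- replicate 2 in all tissues gave -0.72 and ended the call (limma adjusted p = 0.0921). The Fbxo44 effect in the submandibular gland minus that in the stomach was -0.17 (SE 0.28) and did not pass the threshold.

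The relatives beside Fbxo44 had smaller values that were not past the threshold. Fbxo6 read 9.43, 9.48 and 9.31 in the wild-type submandibular gland and 9.25, 9.27 and 9.14 in Car6-/-, a non-overlapping but small change of -0.19 (SE 0.12, limma adjusted p = 0.602). Its changes were 0.03 in the stomach and 0.26 in the duodenum, and its mean effect was 0.04 (SE 0.09). Fbxo2 was tested in the stomach alone, at -0.34 (SE 0.23), and had a mean effect of -0.21 (SE 0.16, limma adjusted p = 0.58). Whether Fbxo44 differed from either relative was not tested.

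Klhl21, an adaptor of cullin 3 ubiquitin ligases that acts in cell division, lay on the other side of Car6. Its stomach arrays read 9.95, 9.47 and 9.93 in wild type and 9.29, 9.03 and 9.31 in Car6-/-, with no overlap and a change of -0.57 (SE 0.19). Duodenal arrays read 9.00, 8.86 and 8.74 against 8.24, 8.02 and 7.43, again with no overlap and a change of -0.97 (SE 0.22, limma adjusted p = 0.128). The submandibular groups overlapped, with 8.48, 8.04 and 8.58 against 8.24, 7.87 and 8.26. The mean effect of -0.58 (SE 0.12) missed the threshold (limma adjusted p = 0.0619).

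Spsb1, a SOCS-box adaptor whose substrates include the inducible nitric oxide synthase, had separate groups in the duodenum but missed the threshold. It read 7.46, 8.34 and 8.51 in wild type and 8.61, 8.88 and 9.02 in Car6-/-, a change of 0.73 (SE 0.28, limma adjusted p = 0.195). Elsewhere it read 5.83, 5.29 and 5.79 against 5.89, 5.75 and 5.88 in the submandibular gland and 7.41, 7.24 and 7.70 against 7.52, 7.52 and 7.01 in the stomach, with overlap in both. Ube4b, a U-box ubiquitin ligase, ranged from -0.14 to 0.21 over the tissues.

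**Figure D2:**
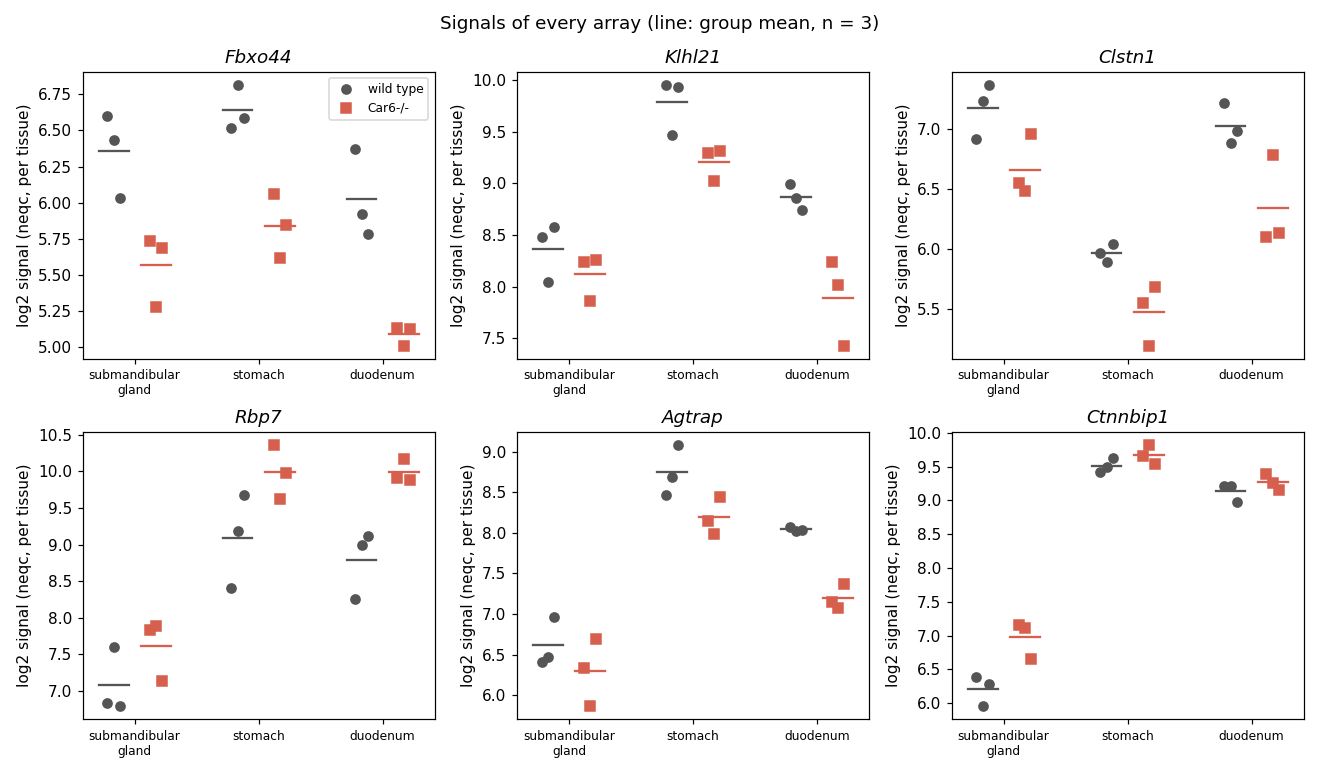
Log2 signal (neqc within each tissue, vertical axis) of every array for 6 members, with wild type as grey circles, Car6-/- as red squares and lines at the group means of 3 arrays. Fbxo44 shows no overlap in any tissue, with the duodenal Car6-/- arrays undetected; Klhl21, Clstn1 and Agtrap show none in the stomach and duodenum.

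In the group for membrane traffic, transport and signalling, Clstn1 and Agtrap were lower and Rbp7 higher in each tissue, without any call in the mean effect. Clstn1, a calsyntenin that links cargo vesicles to kinesin motors, read 6.92, 7.23 and 7.37 in the wild-type submandibular gland and 6.55, 6.48 and 6.96 in Car6-/-. Its stomach values were 5.97, 5.90 and 6.04 against 5.55, 5.19 and 5.68, and only 1 of the Car6-/- arrays detected it. In the duodenum they were 7.22, 6.88 and 6.99 against 6.10, 6.78 and 6.13. The groups overlapped in the submandibular gland alone. The changes were -0.51, -0.49 and -0.69 in this order of tissues, and the mean effect was -0.54 (SE 0.11, limma adjusted p = 0.0619).

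Agtrap binds the angiotensin II type 1 receptor and promotes its internalization. Duodenal arrays read 8.08, 8.03 and 8.03 in wild type and 7.15, 7.08 and 7.37 in Car6-/-. With each tissue fitted on its own, this was the smallest adjusted p of any member, with a change of -0.85 (SE 0.13, limma adjusted p = 0.094) and tight, separate groups. Stomach arrays read 8.47, 8.69 and 9.08 against 8.15, 7.99 and 8.45, a change of -0.55 (SE 0.22), and the lowest wild-type array stood just above the highest Car6-/- array. The submandibular arrays, at 6.41, 6.47 and 6.96 against 6.33, 5.86 and 6.69, overlapped. The mean effect was -0.58 (SE 0.13, limma adjusted p = 0.0766).

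Rbp7, a cellular retinoid-binding protein, had the largest positive change in value of any member. Duodenal signals were 8.26, 8.99 and 9.12 in wild type and 9.91, 10.17 and 9.89 in Car6-/-, which did not overlap and differed by 1.20 (SE 0.24, limma adjusted p = 0.122). In the stomach they were 8.41, 9.18 and 9.68 against 10.36, 9.63 and 9.97, and in the submandibular gland 6.84, 7.60 and 6.79 against 7.83, 7.89 and 7.13, with overlap in both. The mean effect was 0.88 (SE 0.19, limma adjusted p = 0.0652). Adipocytes can express Rbp7. Their list, with 5 of 6 genes on the array, ran from 5.76 to 6.24 in the wild-type duodenum and from 5.69 to 5.82 in Car6-/-, and Plin1, Fabp4 and Lep were detected on no duodenal array. In the stomach it ran from 5.78 to 6.67 against 5.10 to 6.87, and in the submandibular gland from 5.69 to 6.95 against 5.27 to 6.04, with Plin1 and Fabp4 undetected in both. The part of adipocytes in the Rbp7 values was not tested. A second Rbp7 probe was detected on no array.

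Ctnnbip1 encodes an inhibitor that keeps beta-catenin from binding TCF transcription factors. Submandibular arrays read 6.39, 5.96 and 6.28 in wild type and 7.16, 7.11 and 6.66 in Car6-/-, with no overlap and a change of 0.77 (SE 0.18, limma adjusted p = 0.377). In the fit of all 18 arrays the submandibular effect was 0.81 (SE 0.17) and lay just under the threshold (limma adjusted p = 0.05 after rounding), where 0.31% of all genes passed. Stomach arrays read 9.42, 9.49 and 9.63 against 9.66, 9.82 and 9.54 and duodenal arrays 9.22, 9.21 and 8.97 against 9.39, 9.25 and 9.16. Both pairs of groups overlapped, with changes of 0.16 and 0.13. The submandibular effect exceeded the duodenal effect by 0.68 (SE 0.23), which did not pass the threshold (limma adjusted p = 0.175).

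Lzic, named for its likeness to that inhibitor, read 6.41, 6.20 and 6.40 in the wild-type duodenum and 7.03, 6.78 and 6.78 in Car6-/-. These groups did not overlap and differed by 0.52 (SE 0.14, limma adjusted p = 0.131). Its stomach arrays overlapped, at 5.89, 5.57 and 5.99 against 6.08, 6.28 and 5.82, and it was not tested in the submandibular gland.

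Kif1b, a kinesin that carries vesicles and mitochondria along microtubules, had opposite signs in different tissues. The submandibular arrays read 9.69, 9.25 and 9.70 in wild type and 10.03, 9.86 and 10.23 in Car6-/-, a change of 0.50 (SE 0.17, limma adjusted p = 0.499). Duodenal values ran from 9.75 to 10 in wild type and from 9.52 to 9.54 in Car6-/-, a change of -0.30 (SE 0.13, limma adjusted p = 0.217) that shrank to -0.048 with median scaling. Neither pair of groups overlapped, and the difference between the effects, 0.75 (SE 0.35), did not pass the threshold (limma adjusted p = 0.323). The stomach arrays ranged more widely, with 10.74, 10.68 and 9.53 against 10.42, 10.73 and 10.60. The 6 probes of Kif1b did not move together: of the 4 that were kept in the duodenum, the fold changes were -0.30, -0.55, -0.04 and 0.13.

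The remaining members of this group varied by less. Vamp3, a SNARE of recycling endosomes, ranged from 0.09 to 0.20 over the tissues, and its second probe from -0.25 to 0.04. Errfi1, a feedback inhibitor of the EGF receptor, read 9.38, 9.25 and 9.33 in the wild-type submandibular gland and 9.49, 9.41 and 9.56 in Car6-/-, a non-overlapping change of 0.17 (SE 0.11). Tmem201, a protein of the inner nuclear membrane, ranged from -0.39 to 0.24, and Miip, an inhibitor of cell migration, from -0.31 to 0.12. None of these passed the threshold.

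Of the metabolic enzymes and carriers, 4 were tested in the mean effect and 0 were called, with 3 lower and 1 higher. H6pd is the hexose-6-phosphate dehydrogenase of the endoplasmic reticulum and supplies NADPH inside it. Its duodenal arrays read 8.81, 8.74 and 8.58 in wild type and 8.19, 8.30 and 8.12 in Car6-/-, with no overlap and a change of -0.51 (SE 0.13, limma adjusted p = 0.13). Stomach values were 9.56, 9.56 and 8.86 against 8.52, 8.39 and 8.89, where wild-type replicate 3 fell among the Car6-/- arrays and the change was -0.73 (SE 0.25). This array is the one high in pancreatic acinar genes, and the part of its cell content in its H6pd value was not tested. Submandibular values were 9.33, 9.13 and 9.74 against 9.45, 9.30 and 9.73, a change of 0.09. The mean effect was -0.38 (SE 0.12, limma adjusted p = 0.166).

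Slc25a33, a mitochondrial carrier of pyrimidine nucleotides, had separate groups in the duodenum without passing the threshold. It read 8.88, 8.48 and 8.46 in wild type and 8.13, 7.88 and 7.76 in Car6-/-, with no overlap and a change of -0.68 (SE 0.17, limma adjusted p = 0.13). Its other values were 8.51, 8.75 and 8.10 against 8.66, 8.67 and 8.08 in the submandibular gland and 9.22, 9.27 and 9.30 against 9.35, 9.19 and 9.08 in the stomach, with overlap in both. Plod1, a lysyl hydroxylase of collagen, was tested in the submandibular gland alone, at 5.15, 5.21 and 5.31 against 5.35, 5.78 and 5.51. Only 1 wild-type array detected it, the groups did not overlap, and the change was 0.32 (SE 0.14, limma adjusted p = 0.517). Srm, which makes spermidine, ranged from -0.53 in the duodenum to 0.25 in the submandibular gland, and its 3 probes differed in sign within the stomach.

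No mitochondrial, peroxisomal or stress member passed the threshold. Mfn2, a GTPase that fuses mitochondrial outer membranes, read 11.00, 11.21 and 11.42 in the wild-type duodenum and 11.57, 11.57 and 11.55 in Car6-/-. The groups did not overlap, with a change of 0.35 (SE 0.15, limma adjusted p = 0.209). Its submandibular values were 9.12, 8.75 and 9.26 against 9.05, 8.76 and 9.37 and its stomach values 11.18, 11.23 and 11.21 against 11.00, 11.33 and 11.37, with overlap in both. Park7, a redox-sensitive protein known as DJ-1, was lower in value in each tissue, from -0.05 to -0.25. Pex14, a docking protein of peroxisomal import, ranged from -0.32 to 0.03, and Dffa, the inhibitor of the DNase that caspases release, was at 0.41 and 0.11 in the stomach and duodenum.

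The 4 tested members of the RNA, chromatin and transcription group also stayed short of the threshold. Tardbp, the RNA-binding protein TDP-43, ranged from 0.12 to 0.26 with its main probe, while a second probe gave 1.06 in the duodenum (SE 0.26, limma adjusted p = 0.135 with every probe tested), where 1 wild-type and 3 Car6-/- arrays detected it. Exosc10, the nuclear exosome's RNase, ranged from -0.14 to -0.04. Phf13, a PHD finger protein of chromatin, ranged from -0.25 to 0.14, and in the stomach its probes differed in sign, at -0.20 and 0.42. Per3, a component of the circadian clock, was tested in the duodenum alone, at -0.45 (SE 0.22), where 2 wild-type arrays and 1 Car6-/- array detected it.

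**Figure D3:**
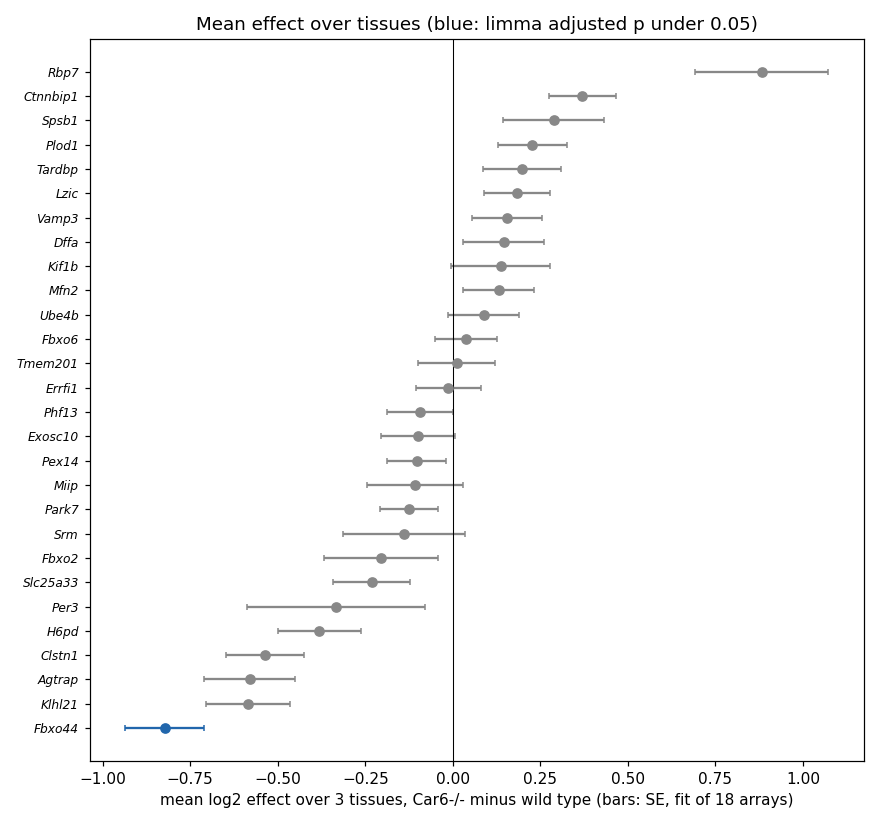
Mean log2 effect of Car6-/- over the 3 tissues with its SE (horizontal axis, fit of 18 arrays) for the 28 tested members, in order of size. Fbxo44 at -0.82 is the single member called (blue), and Rbp7 at 0.88 has the largest positive value with a wider error.

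Over the 3 tissues, 8 of the 28 members had an unadjusted p under 0.05 for the mean effect, or 28.6% against 14.9% of all genes. Of these 8, 5 were lower and 3 higher (7.8% and 7.05% of all genes). Lower members numbered 15 and higher members 13, where 49.6% of all genes were lower, and the median was -0.05 against 0.00 for all genes. In the same fit 4 members were called for the duodenal effect alone, where 6.23% of all genes were called: Klhl21 (limma adjusted p = 0.0188), Fbxo44 (0.0243), Agtrap (0.0381) and Rbp7 (0.0417). This fit takes its spread from all 6 groups, whereas the duodenal arrays on their own gave 0 calls. Its stomach effect called 0 members, against 0.0103% of all genes.

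Direction was compared for the 23 members tested in every tissue. Of these, 11 had a single direction in all 3 tissues, or 47.8% against 29.5% of the 6596 genes tested in all 3. The 6 lower throughout (15.2% of all genes) were Agtrap, Fbxo44, Exosc10, Clstn1, Park7 and Klhl21. The 5 higher throughout (14.3% of all genes) were Mfn2, Tardbp, Rbp7, Ctnnbip1 and Vamp3. With median scaling the count was 7, or 30.4% against 27.5% of all genes. Without replicate 1 of the submandibular gland and replicate 3 of the stomach and duodenum, in both genotypes, it was 6 of 21, or 28.6% against 25.6%. This alternative was chosen after seeing the data. It left out the arrays far off in pancreatic acinar, gastric mucous or salivary acinar genes, with the same-numbered array of the other genotype. Stomach arrays that differed in skeletal muscle or squamous genes were in part kept. Groups failed to overlap in 1 direction in at least 2 tissues for 4 members, Agtrap, Fbxo44, Clstn1 and Klhl21, which is 17.4% of the 23 against 4.53% of all genes. Fbxo44 alone of these did so in all 3 tissues, where 0.167% of all genes did. In the duodenum its probe was detected on the 3 wild-type arrays and on no Car6-/- array. It thus passed the filter there through the higher group alone, and its duodenal separation is not independent of the filter. Compared by same-numbered pair, Agtrap, Clstn1 and Klhl21 were also lower in each of the 3 pairs of the submandibular gland, as were Fbxo44 and Fbxo6. These 5 are 20.8% of the 24 members tested there, against 20.2% of all genes, and 10 members, or 41.7% against 23.1%, were higher in each pair. The tissues may come from the same mice, so the 3 tissues are not independent evidence of direction.

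No member's effect differed between tissues past the threshold. Each of the 3 pairs of tissues gave 0 called members of 28, against 0.062% of all genes for the submandibular gland and stomach, 0.207% for the submandibular gland and duodenum and 0.0207% for the stomach and duodenum (limma interaction contrasts). At an unadjusted p under 0.05 the counts were 4, 5 and 3, where 4.62%, 14.9% and 12.8% of all genes passed.

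Along the chromosome, 35 members lie on the centromere side of Car6 and 14 on the telomere side, with 66 protein-coding genes from the first to the last of them, both and Car6 included. The order is that of the RefSeq gene table of GRCm38.p6, and distances were not used. On the centromere side 22 members were tested in the mean effect, with 10 lower, 12 higher and a median of 0.02. On the telomere side 6 were tested, with 5 lower, 1 higher and a median of -0.11, where 49.6% of all genes were lower. Apart from Klhl21, the lower values there were small against their SE. They were Errfi1 at -0.01 (SE 0.09), Park7 at -0.13 (SE 0.08), Per3 at -0.33 (SE 0.25) and Phf13 at -0.09 (SE 0.09). Members at an unadjusted p under 0.05 numbered 7 of the 22 and 1 of the 6, where 14.9% of all genes passed. The tested members nearest to Car6 were H6pd on one side, at -0.38, and Errfi1 on the other, at -0.01. Rbp7, Lzic and Ctnnbip1 had positive values and Clstn1, the listed gene after Ctnnbip1, a negative one. Fbxo44 is 26 places from Car6 in the list and Klhl21, the most distant tested member on the telomere side, is 12 places away.

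The array also held probes for 8 genes that lie between the outermost members and are not on the list. Of these, 4 were tested in the mean effect, and none reached an unadjusted p under 0.05. The smallest p values belonged to 2510039O18Rik at 0.11 (SE 0.08), Mtor, the kinase of growth control, at 0.07 (SE 0.16), and Thap3 at -0.02 (SE 0.12). In the duodenum Cenps, a centromere protein named after its values were seen, read 6.25, 6.25 and 6.84 in wild type and 6.86, 7.15 and 7.04 in Car6-/-. That change of 0.57 (SE 0.20) did not pass the threshold (limma adjusted p = 0.166).

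**Figure D4:**
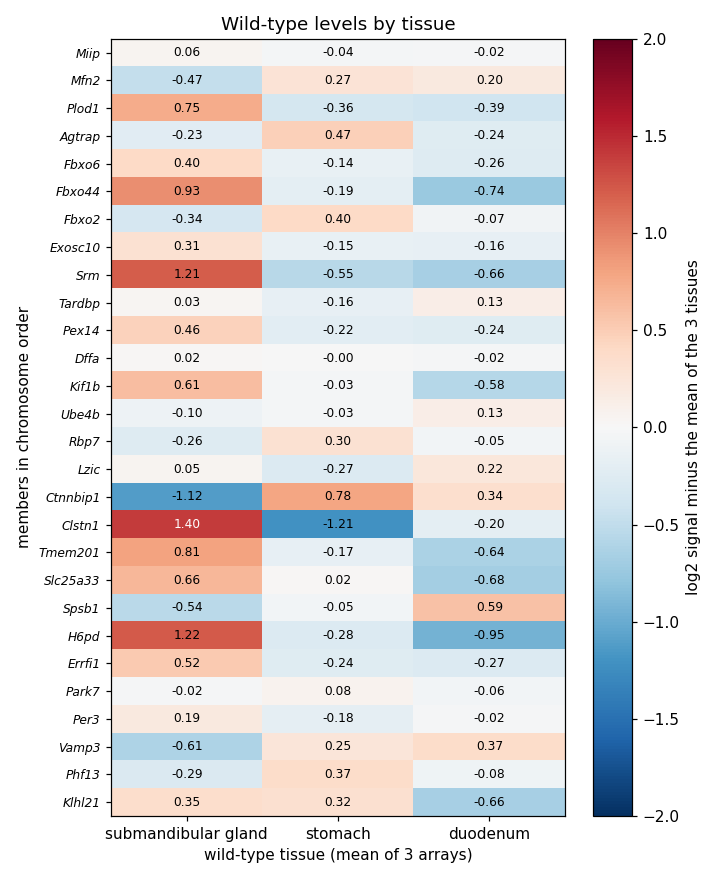
Wild-type log2 signal of each tested member in each tissue (mean of 3 arrays, fit of 18 arrays), minus that member's mean over the 3 tissues, in chromosome order. Clstn1 runs from 1.40 in the submandibular gland to -1.21 in the stomach; with median scaling the difference between the submandibular gland and stomach changes sign for 13 of the 28 members, and that between the submandibular gland and duodenum for 9.

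The tissues themselves differed far more than the genotypes. In wild type, 18 of 28 members differed between the submandibular gland and stomach (50.8% of all genes), 17 between the submandibular gland and duodenum (55.1%) and 8 between the stomach and duodenum (31%). These shares depend on the scaling, because median scaling moved the median of all genes from -0.02 to -0.83 in the first contrast and from 0.04 to -0.64 in the second. With it, 9 of the 18, 9 of the 17 and 4 of the 8 were called in the same direction, and Exosc10 and Slc25a33 were called in the opposite direction against the stomach. Of the members called in the submandibular gland against the stomach, 12 of 18 were higher in the gland, and 3 of 19 with median scaling. Against the duodenum 13 of 17 were higher, and 5 of 18 with median scaling. The directions of all called genes were not counted, so these counts describe no trait of the list. In the main fit 51.3% of all genes, called or not, were lower in value in the gland than in the stomach. Against the duodenum 48.1% were lower.

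The tissue differences that held under each scaling were those of Clstn1, Ctnnbip1, Srm and Vamp3 against the stomach, among others. The wild-type log2 level of Clstn1 was 8.31 ± 0.24 in the submandibular gland (SD, n = 3), 5.70 ± 0.07 in the stomach and 6.71 ± 0.17 in the duodenum. The submandibular level exceeded that of the stomach by 2.61, and by 1.59 with median scaling. Ctnnbip1 ran the other way, at 7.29 ± 0.25, 9.20 ± 0.11 and 8.75 ± 0.14, and was lower in the submandibular gland than in the stomach by a log2 difference of -1.90, or -2.95 with median scaling. The stomach and duodenal levels of Ctnnbip1 lay at the threshold, with a difference of 0.44 (limma adjusted p = 0.0529). With same-numbered arrays of a genotype as a random block across tissues it was called (limma adjusted p = 0.0402), as it was without background correction (limma adjusted p = 0.0292). Between these tissues the block called 10 members in place of 8, with Ctnnbip1 and Spsb1 added. The share of all genes called with the block was not counted.

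Fbxo44 was at 7.45 ± 0.32 in the submandibular gland, 6.33 ± 0.15 in the stomach and 5.77 ± 0.28 in the duodenum. The submandibular level exceeded the duodenal one by 1.68 (0.80 with median scaling), and both passed the threshold. Its excess over the stomach, 1.12, was 0.09 with median scaling and was then not called. H6pd was at 10.51 ± 0.30, 9.01 ± 0.41 and 8.34 ± 0.12, with 2.17 between the submandibular gland and duodenum (1.25 with median scaling). Klhl21 was at 9.50 ± 0.27, 9.47 ± 0.28 and 8.49 ± 0.12, and the stomach level exceeded the duodenal one by 0.98 (1.13 with median scaling).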

How the data were processed

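The authors deposited non-normalized probe intensity values on a linear scale with a detection p-value beside each, per the file headers, and a table of log2 values whose normalization was not stated. The sources used here do not give the submitters' software. The neqc function of limma 3.58.1 (R 4.3.3) corrected the background of the intensities and applied quantile normalization to the 6 arrays of each tissue, with an offset of 16 and negative controls inferred from the detection p-values. Probes detected (p under 0.01) on at least 3 arrays were kept, and the kept probe with the highest mean stood for its gene. Probes were named through the platform annotation and the RefSeq gene table of GRCm38.p6.

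Genotypes were compared within each tissue with lmFit and eBayes, with Benjamini-Hochberg adjustment over all genes tested and a threshold of 0.05. The mean effect over tissues, the differences between tissues and the wild-type tissue contrasts came from 1 fit of the 18 arrays under a joint normalization, for which a probe had to be detected on 3 or more of them. That fit takes arrays as independent, although tissues may share mice. The series text speaks of 3 mice per genotype, so replicates of a group were taken as separate animals. Where no array of a group detected a probe, the bound compares the other group's mean with the lowest detected signal of each array, without background correction. The number of arrays limits the precision.

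The members and lists were chosen with earlier results of these data known. Values of every array are given for Car6 and for members past an adjusted p of 0.05 in any fit, with an unadjusted p under 0.05 in any tissue or in the mean effect, or with no overlap in 1 direction in at least 2 tissues. Of the other genes between the outermost members, the 3 with the smallest p of the mean effect were named. Other members' values were given as ranges or as examples. Replicate numbers come from the sample titles. Submandibular arrays with the same number deviated together, with correlations of their deviations of 0.266, 0.520 and 0.235 for replicates 1 to 3. Directions were therefore also counted by same-numbered pair there. The sample titles state no pairing, and the main fits, with their SE and p-values, did not use it in any tissue. With the replicate block, the submandibular gland also gave 0 called members. The alternatives were the background correction, the scaling, the filter, the probe choice, the replicate block, array weights, the authors' deposited log2 values and leaving out arrays. The fits were tested on simulated data.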

Additional observations from a re-analysis of the deposited data

Results flagged for a closer look

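The effect of Car6-/- on Car6 itself differed between tissues by the interaction contrasts of the fit of 18 arrays. The submandibular effect minus the stomach effect was -2.86, and minus the duodenal effect it was -2.90, on the log2 scale. Car6 was detected on the 3 wild-type submandibular arrays and on no array of the stomach or duodenum in either genotype, so these fitted differences are not measured folds.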

How the results depend on the processing

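The 29 tests named by gene and tissue or by gene and mean effect kept their direction in all 476 combinations of a test with an alternative, and 25 of these moved a value past the threshold. The exception was the mean effect of Fbxo44, whose call ended without Car6-/- replicate 2 in all tissues. Counts of called members are small, and they moved as follows. The replicate block gave 5 in the duodenum and 3 in the mean effect, Agtrap, Fbxo44 and Klhl21, where 35 of all 9682 genes were called. The duodenal count came with 969 calls among all 8523 genes. Same-numbered arrays correlated at 0.485, 0.087 and 0.440 in the duodenum, against 0.266, 0.520 and 0.235 in the submandibular gland. In the stomach they correlated at -0.311, -0.258 and -0.295. Pairs were not counted in the stomach or duodenum, and whether the duodenal numbers are pairs is not known. The block changed no other call of a member. Array weights gave 6 in the duodenum, where 848 of all 8523 genes were called. The fit of all 18 arrays gave 4 in the duodenum and 1 in the submandibular gland, where 603 and 30 of all 9682 genes were called. In the mean effect, the authors' log2 values and no background correction gave 2 each, as did the mean without the submandibular gland, an alternative chosen after seeing the data. In this order, 23, 24 and 21 of all 9682 genes were called. Leaving out a replicate of 1 genotype in all tissues gave 0 to 3. There were 3 without wild-type replicate 3, where 310 of all 9399 genes were called. There were also 3 without Car6-/- replicate 3, where 63 of all 9438 were called. Without Car6-/- replicate 2 there were 0, where 3 of all 9599 were called.

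Members with a single direction in all 3 tissues numbered 7 with median scaling. They numbered 6 without replicate 1 of the submandibular gland and replicate 3 of the stomach and duodenum, in both genotypes. Without the filter on dim probes, lower members numbered 18 in the submandibular gland and 29 in the stomach, of 44, and medians were 0.038 in the submandibular gland, 0.025 in the duodenum and -0.0013 in the mean effect. With median scaling the medians were 0.16 in the duodenum and 0.050 in the mean effect. Without replicate 3 of both genotypes they were -0.037 in the stomach and -0.0050 in the duodenum. Leaving out single arrays gave submandibular medians from 0.066 (without wild-type replicate 2) to 0.18, stomach medians from -0.19 to -0.090 and duodenal medians from -0.14 to 0.031. Leaving out a replicate in all tissues gave medians of the mean effect from -0.067 to -0.017 (without wild-type replicate 1). The causes of these changes were not tested. Dim signals limit what can be said: 16 members with a probe were tested in no tissue, and Fbxo44 was detected on 13 of 18 arrays.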
